A study of Rattus norvegicus and Homo sapiens with 12 samples.

Results

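TGF-β ligands, receptors, SMADs and targets were examined in DU145, an established human prostate cancer cell line, before and after selection in conditioned medium (CM) of mesenchymal stem cells (MSCs). The 9 genes are the ligands TGFB1 and TGFB2, the receptors TGFBR1 and TGFBR2, the signal transducer SMAD3, the inhibitory SMAD7, and the target genes CCN1, CCN2 and TGFBI. They were chosen by name from the 60107 gene identifiers of the human count table, matched by Ensembl identifier, and all 9 passed the filter on low counts. F0 DU145 is the parental population and F2 DU145 the population recovered from repeated MSC CM, both grown in DMEM with 10% FBS, with 3 libraries per population. The MSCs were human and purchased. Each round in CM lasted 72 h and was followed by 48 h in complete medium; the sample labels give 2 rounds, and the series text gives 3. RNA (500 ng per library) was read with QuantSeq, which primes on the poly(A) tail and gives 1 fragment near the 3′ end of a transcript. Counts therefore do not scale with transcript length. Levels of different genes are set side by side as counts or CPM, and differences between genes in priming and mapping were not measured. Whether the 3 F2 samples came from separate selections is not given in the sources used here, so SD and p describe the spread between samples, which may be technical.

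TGF-β ligands are secreted in a latent form, and once released they bind a receptor kinase pair, TGFBR2 and TGFBR1, which phosphorylates SMAD2 and SMAD3. These enter the nucleus with SMAD4 and change transcription of genes for matrix proteins, cytoskeleton and feedback inhibitors, SMAD7 among them. The related BMP ligands act through SMAD1, SMAD5 and SMAD9 and induce the ID genes. In epithelial cells TGF-β is known both for growth arrest and, in carcinoma, for mesenchymal gene expression, and it is abundant in bone.

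QuantSeq reads come from transcript ends. The last 30 bases of the principal transcript are shown for the 3 members that differed between F0 and F2, from the GENCODE release 29 transcripts on GRCh38, 5′ to 3′ in the direction of the transcript. Capitals mark the poly(A) signal AATAAA, searched on the transcript strand.
TGFB2 (chr1:218444590-218444619, + strand, exon 7 of 7, 3′ UTR): ggattAATAAAaaaagtaattgtgactcaa
CCN1 (chr1:85583933-85583962, + strand, exon 5 of 5, 3′ UTR): aaagattctgaagctaaatttgtgatttaa
TGFBI (chr5:136063788-136063817, + strand, exon 17 of 17, 3′ UTR): gtgtttgtaatAATAAAaccaaagaaacat
The signal lies 19 bases before the end of TGFB2 and 13 bases before the end of TGFBI, and these letters are not in the CCN1 window. Of 19613 protein-coding genes, 51.0% hold AATAAA in the same window, 12.1% hold only the variant ATTAAA and 36.9% hold neither.

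Of the 9 genes, TGFB2 fell in F2, CCN1 and TGFBI rose, and 6 did not pass the test. The threshold was an adjusted p under 0.05 in the quasi-likelihood test of edgeR, with Benjamini-Hochberg adjustment over all 14316 genes tested. The share called, 3 of 9 or 33.3%, stands beside 18.2% of all tested genes, with 9.49% called higher and 8.67% called lower. In 4 of the 9 genes the CPM ranges of F0 and F2 did not overlap, against 34% of all tested genes. Their median log2 fold change was -0.11, against -0.0025 over all tested genes, with 3 estimates above 0 and 6 below. Of all called genes 52.3% were higher in F2 with TMM scaling and 22.9% with library size alone, which moved the median of all genes by -0.09. These are bulk libraries, in which fewer cells expressing a gene and less of its RNA per cell cannot be told apart.

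Gene counts per library lay between 15879480 and 16479239. Of these, 0.0874% ± 0.00306 (SD, n = 3) belonged to the 9 genes in F0 libraries and 0.0876% ± 0.00346 in F2 libraries. Mitochondrially encoded transcripts took 5.86% ± 0.145 of counts in F0 and 10.4% ± 0.201 in F2. Of 7 epithelial markers 6 were above 3 counts, led by KRT7, KRT18 and KRT19, and KRT5 was at 0 in every library. Among 22 MSC markers 9 were above 3 counts and 6 were at 0 in every library (THY1, CXCL12, LUM, POSTN, SPARC and VCAM1). The summed CPM of the MSC list was 176 to 207 in F0 and 253 to 269 in F2, led by NT5E, MCAM and NES. Without NT5E the sums overlapped, at 28.4 to 47.5 CPM in F0 and 35.7 to 47.7 CPM in F2. Its part in the results below was not tested.

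**Figure D1:**
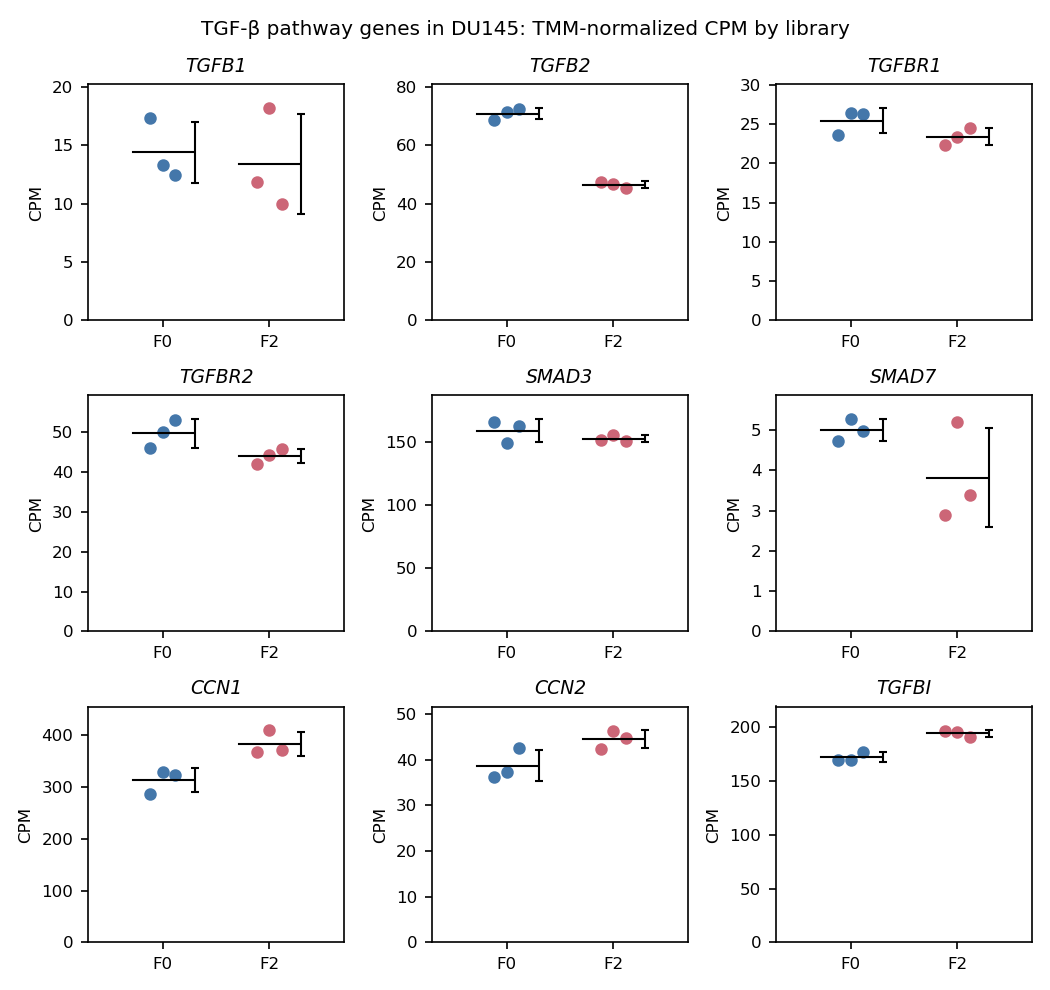
TMM-normalized CPM of the 9 genes in each F0 and F2 DU145 library, 1 panel per gene with its own axis from 0; points are libraries, lines are means and bars are SD (n = 3). The F0 and F2 points are apart for TGFB2, TGFBR2, CCN1 and TGFBI and overlap for the other 5 genes.

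TGFB2 had the most counts of TGFB1, TGFB2 and TGFB3 in DU145, and it fell by 34.4% in F2. TGFB2 (ENSG00000092969, chr1:218346235-218444619, + strand) stood at 68.7, 71.2 and 72.4 CPM in F0 replicates 1 to 3 and at 47.4, 46.6 and 45.3 CPM in F2 replicates 1 to 3. Every F2 library was below every F0 library, and the replicates lay close together (70.8 ± 1.89 against 46.4 ± 1.10 CPM, n = 3 each). The log2 fold change was -0.61 (SE 0.057, 95% interval -0.73 to -0.49), with an edgeR adjusted p of 3.1e-07. It stayed past the threshold in each of 13 alternative fits, between -0.70 and -0.59. The counts behind it were 1163, 1176 and 1223 in F0 and 742, 718 and 710 in F2. TGFB2-OT1, a non-coding RNA annotated on the same strand within the last exon of TGFB2, is not among the identifiers of the human count table. Reads of the pair cannot be told apart by position. The 29 other tested genes within 5 Mb of TGFB2 had a median log2 fold change of -0.025, and 2 of them were called lower.

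TGFB1 did not pass the test and had the highest coefficient of variation of the 9 genes in both populations. TGFB1 (ENSG00000105329, chr19:41301587-41353911, - strand) stood at 17.4, 13.3 and 12.5 CPM in the F0 libraries and at 11.9, 18.2 and 10.0 CPM in the F2 libraries. The ranges overlap because F2 replicate 2 was above all F0 libraries and F2 replicates 1 and 3 were below them. The coefficient of variation was 18.1% in F0 and 32.0% in F2, and the log2 fold change was -0.11 (SE 0.17, 95% interval -0.46 to 0.24, edgeR adjusted p = 0.711). Its direction turned with 1 library: the estimate was 0.048 without F0 replicate 1, 0.063 without F2 replicate 3 and -0.39 without F2 replicate 2. HNRNPUL1, CCDC97, AC011462.1 and TMEM91 overlap the TGFB1 span on the opposite strand but not its last exon.

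TGFB3 had 3 to 7 counts per library and was not tested. TGFB2 made up 79.5%, 83.9% and 85.1% of the summed counts of TGFB1, TGFB2 and TGFB3 in F0 and 79.7%, 71.4% and 81.3% in F2. These shares overlap between the populations (82.8% ± 2.92 and 77.5% ± 5.30, exact permutation test, two-sided, p = 0.3). With 3 libraries against 3 an exact permutation test cannot give a p below 0.1. There were 1.43 ± 0.0655 TGFB2 counts per TGFBR2 count in F0 and 1.06 ± 0.0679 in F2, with no overlap (two-sided exact permutation test, p = 0.1).

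Neither receptor passed the test, and the estimates of both lay below 0 in each of 13 alternatives. TGFBR2 (ENSG00000163513, chr3:30606502-30694142, + strand), the kinase that binds the ligand, stood at 46.0, 50.0 and 53.1 CPM across F0 and at 42.1, 44.3 and 45.7 CPM across F2. The lowest F0 library was just above the highest F2 library, so the ranges did not overlap. The log2 fold change was -0.17 (SE 0.068, 95% interval -0.32 to -0.03, edgeR adjusted p = 0.083). The edgeR adjusted p passed the threshold without F0 replicate 1 (log2 fold change -0.23, adjusted p = 0.029) and with library size alone (-0.26, adjusted p = 0.0082), and over all alternatives it ran from 0.0082 to 0.292. TGFBR1 (ENSG00000106799, chr9:99104038-99154192, + strand), the kinase that phosphorylates the SMADs, stood at 23.6, 26.4 and 26.3 CPM in the F0 libraries and at 22.3, 23.3 and 24.5 CPM in the F2 libraries. Its ranges overlap, and its log2 fold change was -0.12 (SE 0.082, 95% interval -0.29 to 0.05, edgeR adjusted p = 0.346). Each TGFBR1 count was matched by 1.96 ± 0.0641 TGFBR2 counts in F0 and by 1.89 ± 0.0165 in F2 libraries (two-sided exact permutation test, p = 0.2).

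The SMAD members did not pass the test. SMAD3 (ENSG00000166949, chr15:67063763-67195195, + strand) stood at 166, 149 and 162 CPM across F0 and at 151, 156 and 151 CPM across F2, so all F2 libraries lay within the F0 range. Its log2 fold change was -0.06 (SE 0.050, 95% interval -0.17 to 0.04, edgeR adjusted p = 0.447). With library size alone SMAD3 passed the threshold, at -0.15 (edgeR adjusted p = 0.033). SMAD7 (ENSG00000101665, chr18:48919853-48952052, - strand), which blocks the receptor and is itself induced by TGF-β, had 80, 87 and 84 counts in F0 and 45, 80 and 53 in F2. In CPM these were 4.72, 5.27 and 4.97 in F0 and 2.88, 5.20 and 3.38 in F2. F2 replicate 2 lay within the F0 range and the other F2 libraries lay below it. The log2 fold change was -0.39 (SE 0.20, 95% interval -0.80 to 0.03, edgeR adjusted p = 0.194). Without F2 replicate 2 SMAD7 passed the threshold, at -0.67 (edgeR adjusted p = 0.019). F2 replicate 2 was also the F2 library with the highest TGFB1, and its counts over all genes differed from those of F2 replicates 1 and 3 by a chi-square of 4.27 and 5.95 per degree of freedom, against 2.20 between those libraries. F0 replicate 1 stood apart in a like way, differing from F0 replicates 2 and 3 by 3.08 and 5.35, against 2.25 between those libraries. No library was a copy of another.

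Among the targets, CCN1 and TGFBI rose and CCN2 missed the threshold. CCN1 (ENSG00000142871, chr1:85580761-85583962, + strand), a secreted matrix-associated protein that binds integrins, had the highest CPM of the 9 genes. It stood at 287, 329 and 323 CPM in the F0 libraries and at 367, 409 and 370 CPM in the F2 libraries, with every F2 library above every F0 library. The mean went from 313 ± 22.7 to 382 ± 23.6 CPM, a fold of 1.22 (log2 fold change 0.29, SE 0.055, 95% interval 0.17 to 0.40, edgeR adjusted p = 0.00094). CCN1 was past the threshold in 13 of 13 alternative fits, between 0.20 and 0.33.

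CCN2 (ENSG00000118523, chr6:131948176-131951373, - strand), the connective tissue growth factor, stood at 36.3, 37.2 and 42.5 CPM across F0 and at 42.4, 46.3 and 44.8 CPM across F2. F0 replicate 3 was marginally above the lowest F2 library, and the log2 fold change was 0.20 (SE 0.073, 95% interval 0.05 to 0.35, edgeR adjusted p = 0.061). Without F0 replicate 3 it passed the threshold, at 0.28 (edgeR adjusted p = 0.019). There were 8.11 ± 0.654 CCN1 counts per CCN2 count in F0 libraries and 8.59 ± 0.298 in F2 libraries, which overlap (two-sided exact permutation test, p = 0.4).

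TGFBI (ENSG00000120708, chr5:136028895-136063818, + strand), a secreted matrix protein named for its induction by TGF-β, stood at 169, 170 and 177 CPM in the F0 libraries and at 197, 195 and 191 CPM in the F2 libraries. Every F2 library was above every F0 library. The rise was small, 1.13-fold (172 ± 4.45 to 194 ± 3.11 CPM, log2 fold change 0.17, SE 0.045, 95% interval 0.08 to 0.27, edgeR adjusted p = 0.010). The call was lost with library size alone, where the log2 fold change was 0.084 (edgeR adjusted p = 0.187). It was also lost without F0 replicate 2 (edgeR adjusted p = 0.074) and without F2 replicate 1 (adjusted p = 0.059), where the log2 fold change remained close to that of all libraries, at 0.16 and 0.17, and TGFBI passed in 10 of 13 alternatives. Relative to SMAD3 in the same library, a ratio that no scaling changes, TGFBI counts were 1.08 ± 0.0602 in F0 and 1.27 ± 0.0239 in F2, and CCN1 counts were 1.97 ± 0.242 and 2.50 ± 0.110. Neither ratio overlapped between the populations (exact permutation tests, two-sided, p = 0.1 each). With library size alone SMAD3 itself was lower in F2 (log2 fold change -0.15). These ratios therefore do not separate a rise of the target from a fall of SMAD3. SMAD7 counts were 3.15% ± 0.356 of SMAD3 counts in F0 and 2.49% ± 0.749 in F2, which overlap (two-sided exact permutation test, p = 0.3). Of the 7 ratios given here, none had a Benjamini-Hochberg adjusted p below 0.233 by exact permutation, and 3 were at p = 0.1 unadjusted, the smallest this design allows.

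**Figure D2:**
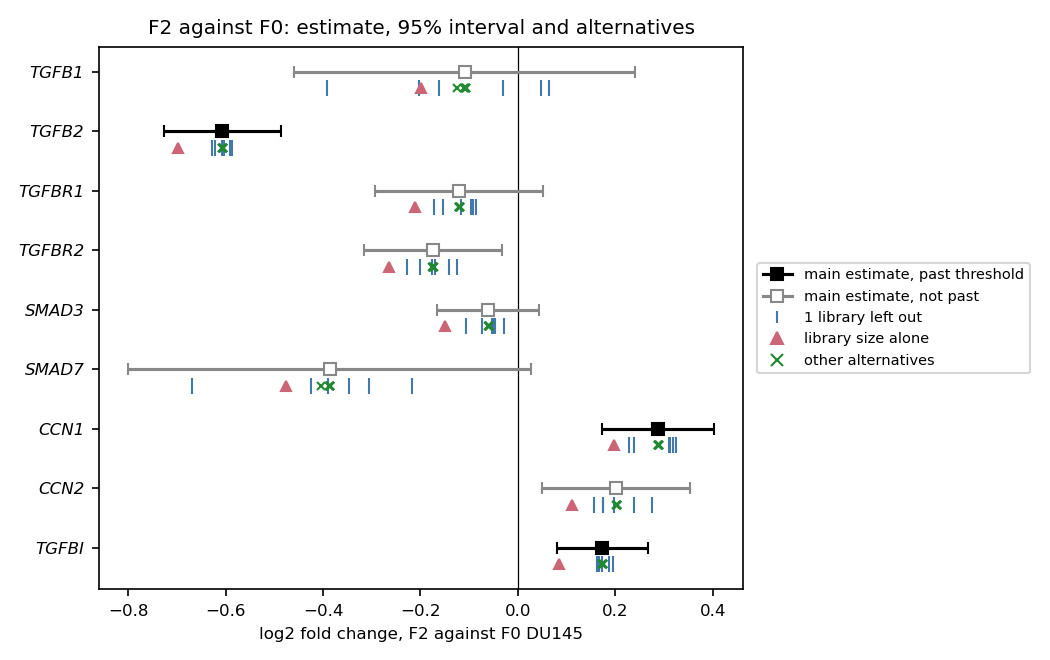
Log2 fold change of F2 against F0 DU145 for each of the 9 genes; squares with bars are the edgeR estimate and its 95% interval (filled where past the threshold), and the marks under each square are the alternatives. TGFB2 lies between -0.70 and -0.59 and CCN1 between 0.20 and 0.33 in every alternative, while the estimates of TGFB1 lie on both sides of 0.

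The order of the transcripts by mean CPM was nearly the same in both populations. In F0 it ran from CCN1 through TGFBI, SMAD3, TGFB2, TGFBR2, CCN2, TGFBR1 and TGFB1 to SMAD7, and no neighbours overlapped in range. In F2 the ranges of TGFB2, CCN2 and TGFBR2 overlapped, at 46.4 ± 1.10, 44.5 ± 1.98 and 44.0 ± 1.80 CPM, so their order was not resolved. Over the 6 libraries, the transcripts whose log2 CPM followed TGFB2 most closely were SLC39A7, RRP1B, UGDH, HSD17B11 and SRI, with Pearson r between 0.997 and 0.998, out of 8650 genes with a mean of at least 10 CPM. All 5 were lower in F2, with log2 fold changes from -0.45 (UGDH) to -0.31 (SLC39A7, SRI). These correlations describe libraries that share the split into F0 and F2.

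Around the members, the other ligands were mostly undetected. Of 11 TGF-β and activin ligands 3 were tested (TGFB1, TGFB2 and GDF11), and 5 had at most 3 counts in every library. Of 19 BMP and GDF ligands 4 were tested, and only BMP7 was called by edgeR (25%, against 18.2% of all tested genes). BMP7 stood at 1.18, 2.60 and 2.07 CPM across F0 and at 0.320, 0.520 and 0.510 CPM across F2, with no overlap. Its log2 fold change was -2.10 (SE 0.39, edgeR adjusted p = 0.00076), resting on 20, 43 and 35 counts in F0 and 5, 8 and 8 in F2. Every F2 count of BMP7 was below 10, so it passed the filter on low counts through F0, where it was higher. Its call therefore rests partly on that filter and is a description. BMP4, BMP6 and BMP8B were tested and not called. Of 11 genes listed under storage and release of latent TGF-β 7 were tested, with 1 higher and 1 lower (28.6% called, against 18.2% of all tested genes). LTBP2, a fibrillin-related matrix protein, rose from 13.7 ± 1.29 to 26.0 ± 1.81 CPM (log2 fold change 0.93, edgeR adjusted p = 8.6e-07). LTBP1, LTBP3 and LTBP4 were tested and not called (log2 fold changes -0.27, -0.21 and 0.25). THBS1, a matrix protein that can release latent TGF-β, fell from 26.3 ± 1.82 to 20.1 ± 2.71 CPM (-0.38, edgeR adjusted p = 0.0082), but was not past the threshold without F2 replicate 1 (-0.30, adjusted p = 0.065).

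Of 15 receptors of the family 11 were tested and 1 was called, 9.09% against 18.2% of all tested genes, while 9 of the 11 estimates were below 0 (median -0.15). The called gene was TGFBR3, the co-receptor betaglycan that presents TGF-β2 protein to TGFBR2. TGFBR3 went from 5.04 ± 0.712 to 3.38 ± 0.109 CPM (log2 fold change -0.58, edgeR adjusted p = 0.026). It passed in 1 of 6 fits that left out 1 library, the one without F0 replicate 1, and its adjusted p was 0.133 without F0 replicate 3. ENG, the other co-receptor, had at most 1 count in a library. The BMP receptor BMPR2 went from 36.7 ± 3.12 to 33.0 ± 1.60 CPM (-0.15, edgeR adjusted p = 0.188).

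All 8 SMAD genes had estimates below 0 (median -0.25) and 3 fell, SMAD6, SMAD1 and SMAD2. Of all 14316 tested genes, 7228 had estimates below 0 and 8.67% were called lower. With library size alone 5 were called. SMAD6, the inhibitor of the BMP branch, fell from 12.4 ± 1.12 to 8.18 ± 1.25 CPM (log2 fold change -0.60, edgeR adjusted p = 0.0027). SMAD1, a transducer of the BMP branch, fell from 23.4 ± 1.94 to 18.0 ± 0.808 CPM (-0.38, edgeR adjusted p = 0.0058) and was not past the threshold without F0 replicate 2 (-0.31, adjusted p = 0.055). SMAD2, the partner of SMAD3, fell from 98.8 ± 3.02 to 78.6 ± 2.61 CPM (-0.33, edgeR adjusted p = 0.00016). SMAD4, named with its values in view, stood at 31.0 ± 1.11 and 29.6 ± 1.13 CPM (-0.07, edgeR adjusted p = 0.581). SMAD2, SMAD4 and SMAD7 share chromosome 18, whose 228 tested genes other than SMAD7 had a median log2 fold change of -0.06.

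Of 23 inhibitors and feedback genes 16 were tested, with 2 higher and 4 lower (37.5% called, against 18.2% of all tested genes). SMURF2, a ubiquitin ligase that targets receptors and SMADs, rose from 67.6 ± 1.60 to 92.1 ± 5.11 CPM (log2 fold change 0.45, edgeR adjusted p = 1.0e-05). TGIF1, a nuclear co-repressor of SMADs, fell from 25.0 ± 1.53 to 19.0 ± 2.95 CPM (-0.40, edgeR adjusted p = 0.0092), and was not past the threshold without F2 replicate 1 (adjusted p = 0.066) or F2 replicate 3 (adjusted p = 0.052). The other called genes were SMAD6 and, named after their values were seen, NEDD4L (higher), SKIL and PMEPA1 (both lower). SKIL and PMEPA1 are feedback inhibitors induced by TGF-β, as is SMAD7. SKIL fell from 32.5 ± 0.515 to 24.8 ± 1.79 CPM (-0.39, edgeR adjusted p = 0.0013) and PMEPA1 from 139 ± 3.78 to 112 ± 1.39 CPM (-0.32, edgeR adjusted p = 8.6e-05).

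The wider list of TGF-β targets moved in both directions. Of 33 genes 29 were tested, 8 rose and 10 fell, 62.1% called against 18.2% of all tested genes, with a median log2 fold change of -0.10. The list includes the members CCN1, CCN2, TGFBI, SMAD7 and TGFB1. It also shares SKIL, PMEPA1, FSTL3, LTBP2 and THBS1 with lists above, so the shares called are not separate between lists. LOX, which cross-links collagen, stood at 1.42, 1.51 and 2.01 CPM in the F0 libraries and at 8.18, 7.66 and 9.44 CPM in the F2 libraries. It rose 5.09-fold (log2 fold change 2.35, SE 0.19, edgeR adjusted p = 2.6e-08), with no overlap between populations. SNAI2, a repressor of epithelial genes, went the other way, from 1.81 ± 0.220 to 0.880 ± 0.438 CPM (-1.03, edgeR adjusted p = 0.038). It passed in 1 of 6 fits that left out 1 library, the one without F2 replicate 2 (its adjusted p was 0.174 without F2 replicate 3). SNAI2 had 12, 21 and 8 counts in F2 replicates 1 to 3, so it did not meet the filter on low counts through F2 alone. The epithelial markers also moved in both directions: 4 of the 6 tested rose and 2 fell. Of all tested genes, 9.49% were called higher and 8.67% lower. The median log2 fold change of these markers was 0.21, against -0.0025 over all tested genes. CDH1, the E-cadherin gene, fell from 14.0 ± 1.79 to 5.78 ± 0.0915 CPM (-1.27, edgeR adjusted p = 7.6e-07), KRT7 fell by 0.24 on the log2 scale, and KRT19 rose from 255 ± 15.8 to 405 ± 13.4 CPM (0.67, edgeR adjusted p = 8.9e-09). EPCAM, KRT8 and KRT18 rose by 0.20 to 0.24 on the log2 scale.

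**Figure D3:**
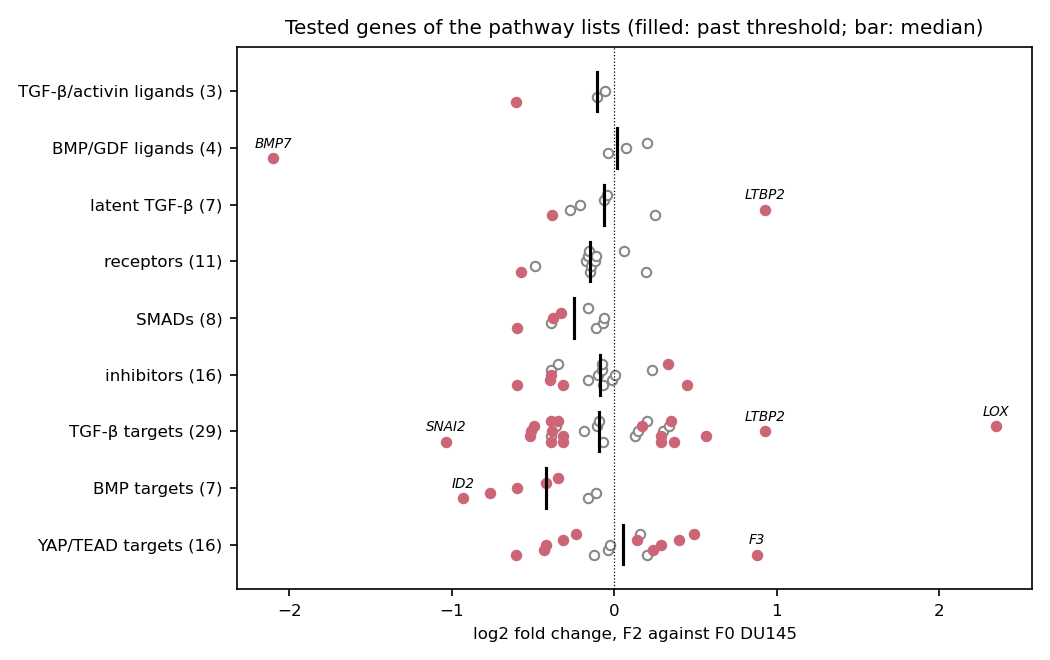
Log2 fold change of F2 against F0 DU145 for each tested gene of 9 pathway lists (number tested in brackets); filled points passed the edgeR threshold and the bar is the list's median. Called TGF-β targets lie on both sides of 0, from SNAI2 at -1.03 to LOX at 2.35, while the called SMADs and BMP targets all lie below 0.

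Most tested BMP targets fell in F2. Of 8 genes 7 were tested and 5 fell, 71.4% against 8.67% of all tested genes called lower, and the median log2 fold change was -0.42 against -0.0025. Like the other lists, this one was chosen with earlier results of these data known, so its share is a description. ID2, an inhibitor of helix-loop-helix transcription factors, stood at 80.0, 85.0 and 80.9 CPM across F0 and at 42.3, 43.2 and 43.7 CPM across F2. It fell by 47.5% (-0.93, SE 0.057, edgeR adjusted p = 7.3e-10), with no overlap. ATOH8 went from 4.37 ± 0.625 to 2.57 ± 0.463 CPM (-0.76, edgeR adjusted p = 0.011), and was not past the threshold without F0 replicate 3 or F2 replicate 1 (adjusted p = 0.069 and 0.070). ID1 and ID3, named after their values were seen, fell by 0.34 and 0.42 on the log2 scale (edgeR adjusted p = 9.4e-06 and 4.9e-06). SMAD6 is the other called member of this list and is counted above among the SMADs. ID1 and ID3 are also induced by TGF-β in some cells, so this list and the one for TGF-β targets are not separate by function.

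**Figure D4:**
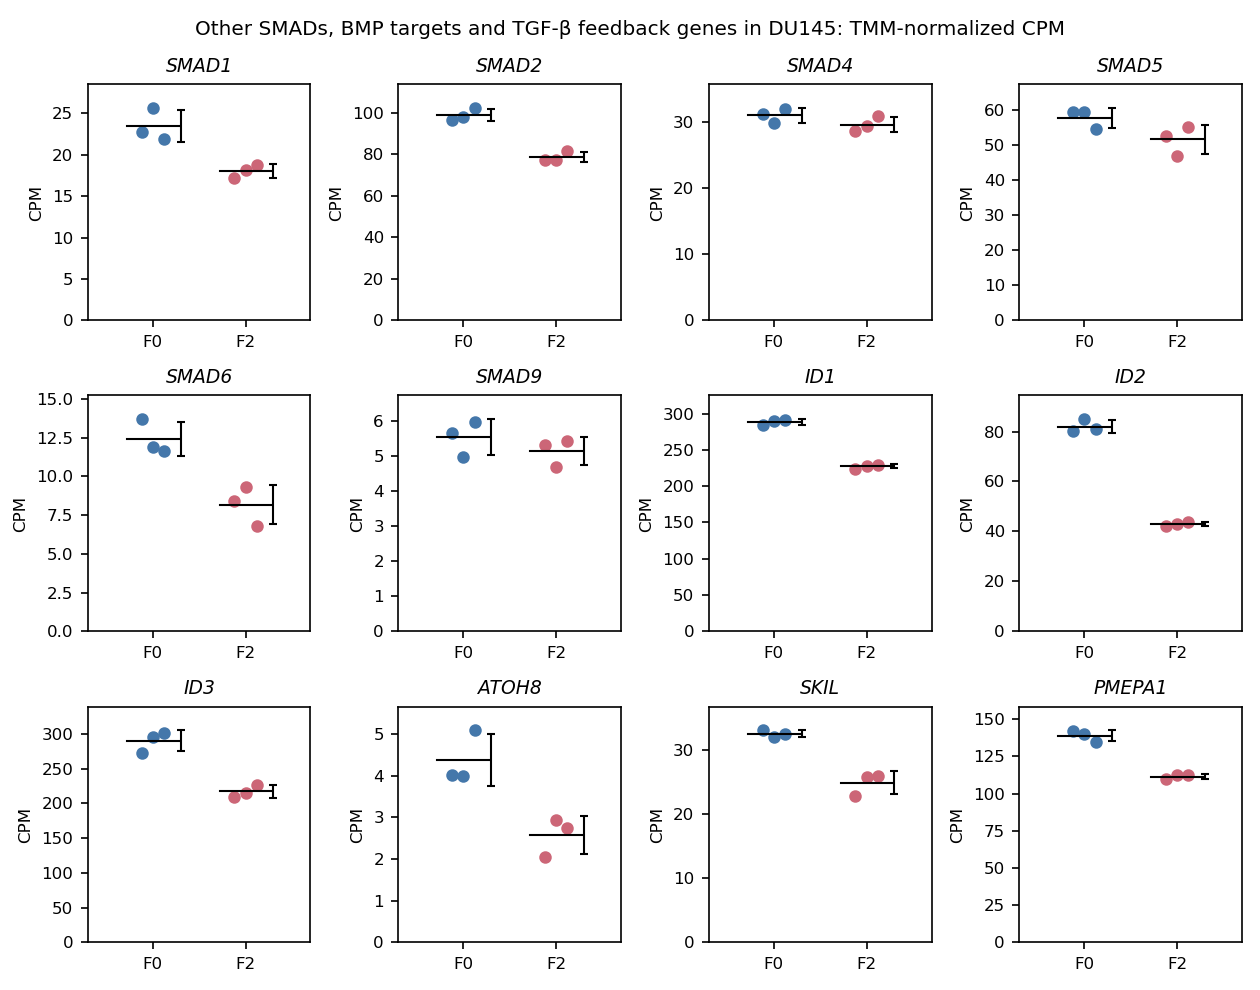
TMM-normalized CPM in each F0 and F2 DU145 library for the other SMADs, 4 BMP targets and the feedback genes SKIL and PMEPA1, 1 panel per gene with its own axis from 0; points are libraries, lines are means and bars are SD (n = 3). The F2 points lie below the F0 points without overlap for SMAD1, SMAD2, SMAD6, ID1, ID2, ID3, ATOH8, SKIL and PMEPA1, and overlap for SMAD4, SMAD5 and SMAD9.

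CCN1 and CCN2 are also classic targets of YAP and TEAD, the transcriptional arm of the Hippo pathway, and TGFB2 is listed with them. All 16 genes of that list were tested, and 6 rose and 5 fell (68.8% called, against 18.2% of all tested genes). Its median log2 fold change was 0.06 with TMM scaling and -0.03 with library size alone. F3, the coagulation initiator tissue factor, rose from 20.2 ± 5.12 to 37.2 ± 2.94 CPM (0.88, edgeR adjusted p = 2.9e-05). NT5E, the ectonucleotidase CD73, rose from 158 ± 9.49 to 222 ± 10.3 CPM (0.49, edgeR adjusted p = 1.3e-06), and it is also the leading gene of the MSC marker list. Within the CCN family 4 of 6 genes were tested, and CCN1 alone was called by edgeR (25%, against 18.2% of all tested genes). CCN4 and CCN6 were at 0 in every library.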

How the data were processed

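Libraries of F0 and F2 DU145 (3 each) were analysed. Alignment and counting were done by the authors with Bluebee, and the deposited values are raw, unnormalized counts of each gene. The submitters' processing notes name STAR 2.5.2a, HTSeq 0.6.0 and GRCh38. The annotation release and the strand setting are not given in the sources used here. The PAIII libraries, from rat, were not analysed here.

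Summary lines that name no gene were removed. They hold reads outside genes (9.81% of uniquely placed reads for F0, 11.6% for F2) and ambiguous reads (1.50% and 1.39%). The 92 spike-in RNAs had 0 counts. Intervals cover the spread between libraries. PCR duplicates could not be removed.

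Low genes were dropped by filterByExpr, which kept genes with about 10 counts (scaled to library size) in at least 3 libraries and 15 in total. F2 was compared with F0 in edgeR 4.0.16 (limma 3.58.1, R 4.3.3) by its quasi-likelihood F-test after TMM scaling, with no covariate, and calls needed an adjusted p (Benjamini-Hochberg, all tested genes) under 0.05. CPM are TMM-normalized. Ratios were compared by exact permutation. DESeq2 1.42.0, 2 other scalings, 2 other filters, a replicate block and each library left out were alternatives. A fit without mitochondrially encoded genes was chosen after seeing the data.

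Symbols came from a table of Ensembl identifiers (56104 of 60107 matched), and positions from GENCODE release 29 on GRCh38. The text names all 9 members, from each list at most the 3 called genes with the largest change whose ranges do not overlap, and the 5 transcripts most like TGFB2. Others were named after their values were seen. Members and lists were chosen with earlier results of these data known, so counts over lists are descriptions. Some genes of the lists are not reported here.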

Additional observations from a re-analysis of the deposited data

Results flagged for a closer look

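Reads outside annotated genes, which enter no comparison above, were a larger share of the uniquely placed reads in F2 DU145, at 11.6% ± 0.303 (SD, n = 3), than in F0, at 9.81% ± 0.213, with every F2 library above every F0 library (exact permutation test, two-sided, p = 0.1, the smallest it can give). Groups of 3 libraries were not tested for single outlying libraries. Pairs of libraries were compared by chi-square above, and each library was left out in turn.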

How the results depend on the processing

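TGFB2 and CCN1 kept their direction and stayed past the threshold in all 13 alternatives, and the number of members called lay between 2 and 4. With library size alone TGFBR2 (-0.26) and SMAD3 (-0.15) passed the threshold and TGFBI (0.084) did not, and the calls were 4 for latent TGF-β, 3 for receptors and 5 for SMADs; 3637 genes were called there, 22.9% of them higher. DESeq2 called 2091 genes and 0 receptors, against 1 by edgeR (at an unadjusted p under 0.05, 2 by either tool). With at least 10 counts in every library BMP7 was not tested, so 0 BMP and GDF ligands were called. Deviations of same-numbered libraries correlated at 0.17, -0.04 and 0.17 (replicates 1 to 3), and those of unlike numbers at -0.21 to 0.07. F0 replicate 2 was closest to F2 replicate 3. Whether the replicate numbers pair the libraries is not settled by these values. The replicate block called 2867 genes, against 2599 without it. It brought CCN2 past the edgeR threshold (0.20, adjusted p = 0.036) and so called 2 CCN genes. Leaving out 1 library gave 1670 (without F0 replicate 2) to 2621 called genes, 1 to 3 for latent TGF-β, 0 to 2 for receptors, 2 to 4 for SMADs and 1 to 2 for CCN genes. The same fits called 12 to 20 TGF-β targets, 8 to 11 YAP and TEAD targets, 5 to 7 inhibitors and 4 to 5 BMP targets. Log2 fold changes then ran from -0.39 to 0.063 for TGFB1, from -0.23 to -0.12 for TGFBR2, from -0.67 to -0.22 for SMAD7, from 0.16 to 0.28 for CCN2 and from 0.16 to 0.19 for TGFBI. The cause of these changes was not tested, except that fits without 1 library have fewer samples. Median-ratio size factors, no filter and leaving out mitochondrially encoded genes changed no call among the members. SMAD7, BMP7, TGFBR3, SNAI2 and ATOH8 rest on fewer than 100 counts per library, as does LOX in F0.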
